A study of Mus musculus with 40 samples.

Results

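Chemokine ligands are small secreted proteins that direct the movement of leukocytes. The set described here is every protein-coding row of the deposited table whose symbol is Ccl, Cxcl or Xcl with a number, or Cx3cl1. It holds 44 rows with 38 symbols, out of 22046 protein-coding rows and 54532 rows in all, and 26 of the 44 reached 1 FPKM (fragments scaled for gene length and library depth) in at least 5 of the 40 libraries. Total RNA of the uterus was sequenced from prepubertal mice (postnatal day 25) given doxorubicin, an anthracycline, as 2 weekly doses of 3 mg/kg, AMH (anti-Mullerian hormone, 0.75 mg/kg), both together, or PBS/saline as the control. How often AMH was given alone is not stated. Collection was 4 h or 24 h later, which gives 8 groups of 5 libraries: control, doxorubicin, AMH, and doxorubicin with AMH, at each time. The labels number the libraries of a group as biological replicates and do not say that each is 1 mouse, so the p-values measure the spread between libraries. Strain is not given in the labels, and the same control libraries of a time serve as control for both doxorubicin and AMH.

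Chemokines are sorted by the spacing of their first cysteines into CC, CXC, XC and CX3C classes, and each acts through a few G-protein-coupled receptors on particular leukocytes. Some, such as Cxcl12 and Cxcl14, are made steadily by stromal and epithelial cells, while others, such as Ccl2 and Cxcl10, are made within hours of injury through NF-kappaB, AP-1 or interferon signalling. In the uterus they are known for the traffic of macrophages, natural killer cells, eosinophils and neutrophils through the stroma, which follows ovarian hormones.

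The promoters of 5 members followed below are shown: Cxcl10, Ccl12 and Ccl3 were called in at least 1 comparison, Cxcl14 had the highest median level, and Cxcl1 is a classical NF-kappaB target that stayed below the filter. Each is the 250 bases upstream of the start site, read 5′ to 3′ on the gene's strand from RefSeq on GRCm38.p6. Capitals mark matches to 3 motifs searched on both strands: the interferon-response core (GAAA, any 2 bases, GAAA), the AP-1 motif TGANTCA and the NF-kappaB consensus.
Cxcl10: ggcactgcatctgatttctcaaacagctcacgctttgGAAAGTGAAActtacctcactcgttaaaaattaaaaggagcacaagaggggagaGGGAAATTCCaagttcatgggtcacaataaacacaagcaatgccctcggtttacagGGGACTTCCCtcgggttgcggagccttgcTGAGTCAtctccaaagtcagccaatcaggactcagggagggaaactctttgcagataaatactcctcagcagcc
Cxcl14: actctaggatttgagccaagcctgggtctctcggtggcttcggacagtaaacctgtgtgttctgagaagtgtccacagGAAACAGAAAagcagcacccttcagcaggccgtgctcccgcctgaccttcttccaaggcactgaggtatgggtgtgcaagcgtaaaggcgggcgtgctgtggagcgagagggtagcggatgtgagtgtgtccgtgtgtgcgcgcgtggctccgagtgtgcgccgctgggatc
Ccl12: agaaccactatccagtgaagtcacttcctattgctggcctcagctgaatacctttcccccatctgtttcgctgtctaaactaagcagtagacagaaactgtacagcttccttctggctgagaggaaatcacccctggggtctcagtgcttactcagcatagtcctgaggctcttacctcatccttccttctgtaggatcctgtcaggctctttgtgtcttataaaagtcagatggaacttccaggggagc
Ccl3: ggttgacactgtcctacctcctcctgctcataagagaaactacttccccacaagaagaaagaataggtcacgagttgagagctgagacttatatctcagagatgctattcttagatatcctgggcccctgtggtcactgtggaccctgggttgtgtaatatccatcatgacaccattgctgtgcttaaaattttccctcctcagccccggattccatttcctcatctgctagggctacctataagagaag
Cxcl1: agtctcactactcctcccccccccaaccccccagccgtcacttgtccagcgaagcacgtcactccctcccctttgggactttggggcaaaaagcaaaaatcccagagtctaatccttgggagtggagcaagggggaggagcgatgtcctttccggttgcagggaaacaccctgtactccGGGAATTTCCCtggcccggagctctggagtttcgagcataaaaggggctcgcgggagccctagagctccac
The windows lie at chr5:92348890-92349139 on the minus strand for Cxcl10, chr13:56296552-56296801 on the minus strand for Cxcl14, chr11:82101595-82101844 on the plus strand for Ccl12, chr11:83649379-83649628 on the minus strand for Ccl3 and chr5:90890995-90891244 on the plus strand for Cxcl1. The Cxcl10 window held all 3 motifs, with the interferon-response core GAAAGTGAAA starting 213 bases before the start site (position -213), NF-kappaB matches at -159 and -103, and TGAGTCA at -74. Cxcl14 held an interferon-response core at -172, Cxcl1 held overlapping NF-kappaB matches at -71 and -70, and these letters were not in the Ccl12 or Ccl3 windows. RefSeq windows lay within 25 bases of the table's start for 15 of the 26 measured members. Ccl5 and Ccl7, which were also called, and Ccl2 were not among them, so their promoters are not shown. Of these 15, 2 held the interferon-response core, against 3.04% of 27025 promoter windows of the same length, 2 held an NF-kappaB match (3.75% of all windows) and 2 held an AP-1 match (6.87%). A match is a description of the letters, not a binding site.

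Levels spanned a wide range, and 3 CXC genes of resident tissue made up most of the signal. Cxcl14, an epithelial and stromal chemokine, had a median over the 40 libraries of 73.4 FPKM (range 29 to 170). Cxcl17, a mucosal chemokine of epithelium, had a median of 43.3 FPKM (21.6 to 186), and Cxcl12, the stromal ligand of Cxcr4, one of 35.5 FPKM (19.4 to 48.3). Together they held a median 57.4% of the summed FPKM of the members (25.7 to 71.1%). The next levels were those of Ccl11 (median 15.2 FPKM), Ccl8 (14), the scaffold copy of Ccl21a (11) and the membrane-bound Cx3cl1 (10.3), whose ranges all overlapped. Between 3 and 6 FPKM stood Ccl5 (5.85), Cxcl16 (5.8), Ccl12 (5.71), Cxcl15 (5.5), Ccl27a (5.07), Xcl1 (4.2), Ccl6 (3.92), Ccl7 (3.68), Ccl28 (3.62) and Cxcl10 (3.18). Ccl2 (1.88), Ccl9 (1.74) and Ccl4 (1.3) were lower, and the medians of Ccl25 (0.778), Cxcl9 (0.685), Cxcl13 (0.662), Ccl3 (0.563), Ccl17 (0.446) and Cxcl5 (0.193) were under 1 FPKM. Neighbours in this order overlapped in range, and 14 of the 26 were at 1 FPKM or more in all 40 libraries.

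**Figure D1:**
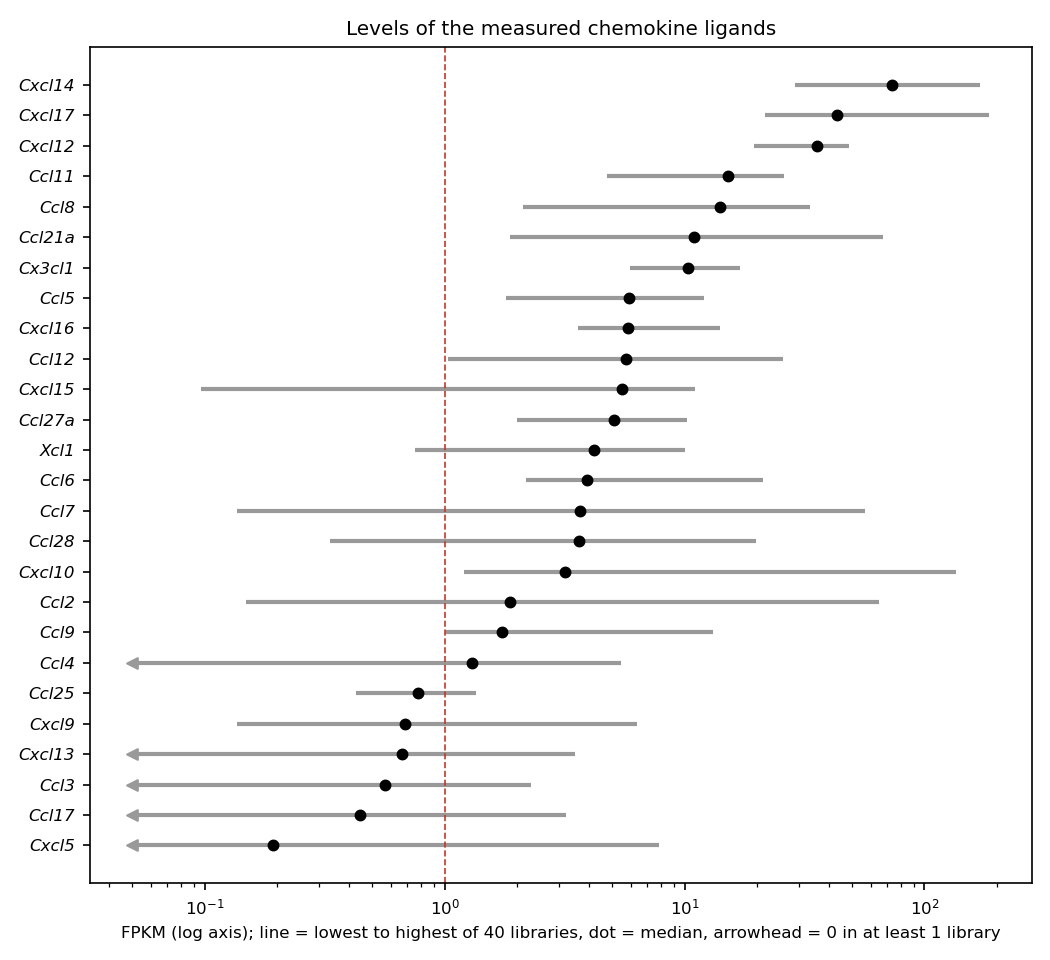
FPKM of the 26 measured chemokine ligands on a log axis, ordered by level; the dot is the median of the 40 libraries, the line runs from the lowest to the highest library, an arrowhead marks a gene at 0 in at least 1 library, and the dashed line is 1 FPKM. Cxcl14, Cxcl17 and Cxcl12 lie highest, while the lines of Cxcl10, Ccl2 and Ccl7 run up to 135, 64.7 and 56.6 FPKM from much lower medians.

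The members varied more between libraries of a group than most genes: the median within-group SD on the log2(FPKM + 1) scale was 0.53 for the 26 members and 0.24 for all 16226 genes that passed the filter. Ccl25 (0.16) and Cxcl12 (0.25) varied least, and Cxcl10 (1.08), Ccl21a (1), Ccl2 (0.97) and Ccl7 (0.97) most. Of the 26, 11 lie on chromosome 11. Of these, 5 (Ccl2, Ccl7, Ccl11, Ccl12 and Ccl8) stand in that order in an array of 81.2 kb at chr11:82035571-82116799 (GRCm38, gene coordinates as deposited). A gene on the other strand overlaps 9 of the 26, among them Cxcl10 (by Art3), Cxcl16 (by Zmynd15), Ccl27a (by Il11ra1) and Ccl2 (by Gm17268). Whether counting used strand is not given in the sources used here, so reads of such pairs may not be told apart.

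The filter left out 18 rows, of which 13 had some reads and 5 were at 0 in all libraries (the chromosome 4 row of Ccl21b, both Ccl19 rows, Ccl26 and 1 of the Ccl27a scaffold rows). Ccl19 and Ccl21 share the receptor Ccr7 and bring dendritic and T cells into lymphatic tissue. Rows that share a symbol with another row number 11, and 7 rows lie on unplaced scaffolds. Ccl21a was measured mainly on a scaffold, with a highest value of 0.919 FPKM for its chromosome 4 row, and its values are uncertain because near-identical copies exist. Ccl19, Ccl21b and Ccl27a also have several rows. How reads that match several rows were counted is not given in the sources used here. A value of 0 for Ccl19 or Ccl21b may therefore not mean absent RNA, and the Ccl27a values are uncertain too. Just outside the filter were Ccl22 (3 libraries at 1 FPKM or more, highest 1.61) and Cxcl1 (2 libraries, highest 7.33), and just inside were Ccl25 (5 libraries) and Cxcl5 (7 libraries). Members that passed mainly through treated libraries were Cxcl9, with 8 of its 9 libraries at 1 FPKM or more having had doxorubicin, and Ccl3, with 9 of 10.

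Depth was 16251563 to 27391049 rebuilt reads in genes per library, of which the members took 0.0451 to 0.114%. By marker genes, 8 libraries stood apart for high oviduct markers (control 4 h library 4, doxorubicin 4 h libraries 3 and 4, doxorubicin with AMH 4 h library 5, doxorubicin 24 h libraries 3, 4 and 5, and doxorubicin with AMH 24 h library 4). Another 4 stood apart for high oestrogen-responsive genes (control 24 h libraries 1, 2 and 4, and AMH 24 h library 3). Doxorubicin 4 h library 3 was also the highest of its group in 15 of the 26 members. In the group with both agents at 4 h, library 4 was the highest in 17 members and library 1 the lowest in 17. Doxorubicin 24 h library 2 was the highest in 12 and library 5 the lowest in 16. The sets by markers were drawn after the values were seen, and leaving out the high-oestrogen set leaves 2 of the 5 controls at 24 h.

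Across the 26 members, the test called 5 changes, each in another gene, and left most comparisons without a call. The test was limma on log2(FPKM + 1) over all 16226 genes, with Benjamini-Hochberg adjusted p under 0.05 as the call, and every log2 change below is on that scale. At 24 h doxorubicin against control called 2 members higher (Cxcl10, Ccl3) and none lower, where 18.4% of all genes were called and 8.44% called higher; 5 members had an unadjusted p under 0.05, as did 37.3% of all genes. At 4 h AMH against control called 2 lower (Ccl7, Ccl12), where 20% of all genes were called and 10.9% called lower; 5 members had an unadjusted p under 0.05, as did 35.7% of all genes. At 4 h doxorubicin with AMH against AMH alone called 1 lower (Ccl5), where 0.222% of all genes were called and 0.173% called lower; 7 members had an unadjusted p under 0.05, as did 11.1% of all genes. In both 24 h doxorubicin and 4 h AMH against control the 7.69% of members called lay below the share of all genes called.

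The remaining comparisons called no member in the main limma fit. Doxorubicin against control at 4 h had 7 members at an unadjusted p under 0.05, as had 12% of all genes, and called 0.493% of all genes. Doxorubicin with AMH against AMH at 24 h had 4 such members (14.2% of all genes) and called 0.0986% of genes, and AMH against control at 24 h had 8 (18.8%) and called 0.462%. Both agents against doxorubicin alone had 5 such members at 4 h (6.92% of all genes) and called 0.00616%, and 4 at 24 h (12.4%) and called 0.333%. Control at 24 h against control at 4 h had 7 (23%) and called 7.32%. The test of whether AMH altered the doxorubicin effect had 4 such members at 4 h (14.5% of all genes) and 1 at 24 h (4.16%) and called 0% of genes at each time. The limma-voom test on rebuilt reads also called 0 members in all of these.

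At 24 h, 21 of 26 members had a positive doxorubicin against control change, with a median of 0.46 against -0.01 for all genes, of which 48.7% were positive. At 4 h 20 were positive, with a median of 0.25 against 0.01 (51.7% of all genes positive). These tallies hold members such as Ccl3 and Cxcl9 that reached the filter nearly only through doxorubicin libraries, which favours a positive sign, so they describe the members that passed and support no direction for the family. For AMH against control the medians were near 0, at 0.02 at 4 h and -0.02 at 24 h (all genes 0.01 and -0.01), and for doxorubicin with AMH against AMH they were -0.03 and 0.13 (all genes 0.02 and 0). Adding AMH to doxorubicin gave medians of -0.32 at 4 h and -0.35 at 24 h (all genes 0.01 and -0.01), with 6 and 8 of 26 positive. The doxorubicin libraries enter both this comparison and that with control.

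**Figure D2:**
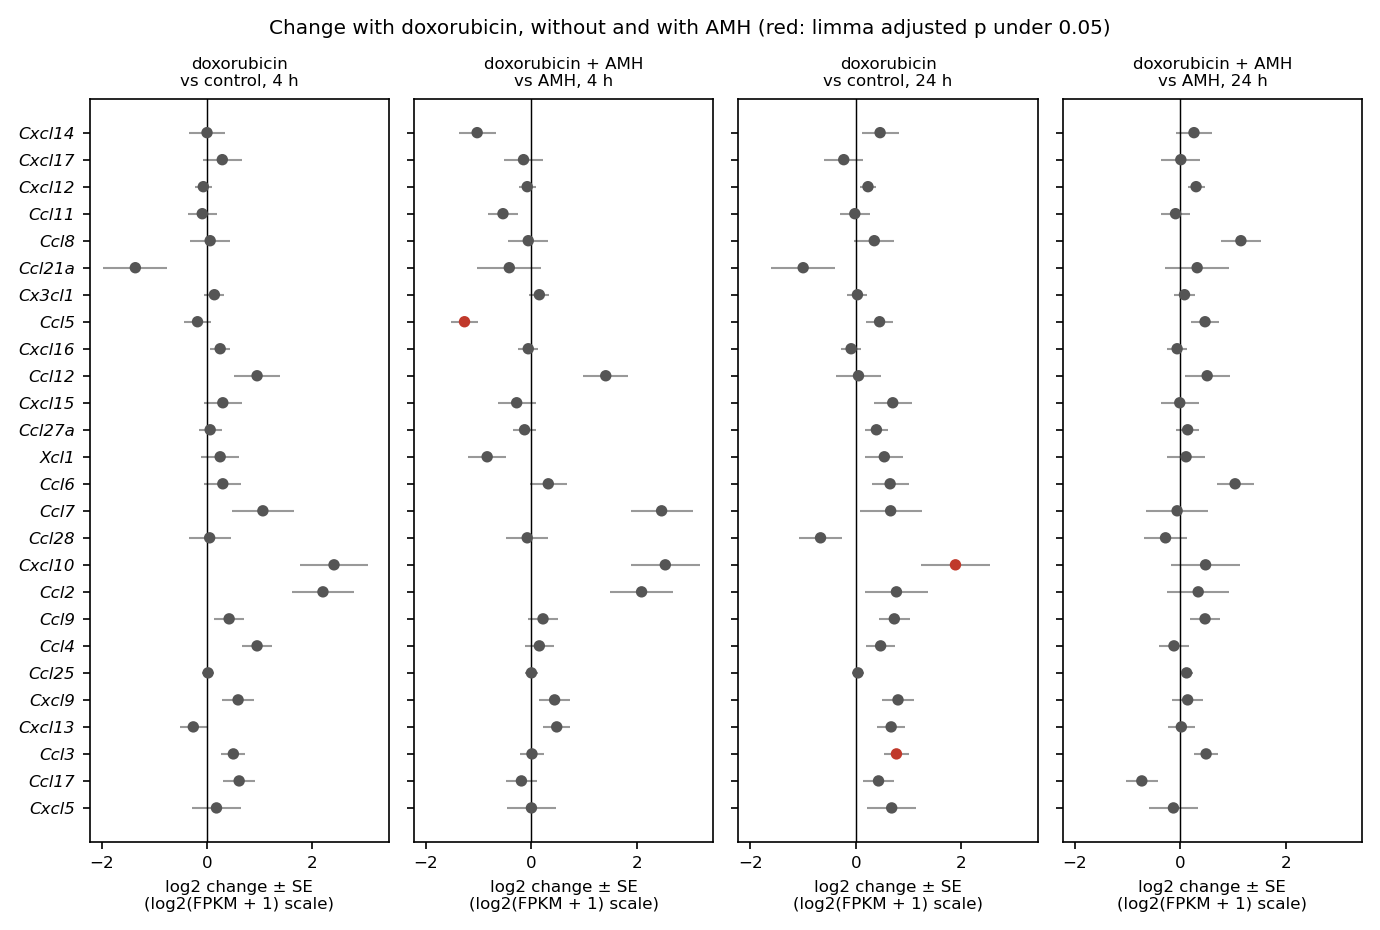
Log2 change on the log2(FPKM + 1) scale with its SE for the 26 members in 4 comparisons that ask for the effect of doxorubicin, without or with AMH, at 4 h and 24 h; red marks an adjusted p under 0.05. Cxcl10 and Ccl3 at 24 h without AMH and Ccl5 at 4 h with AMH are the called points, and the widest changes at 4 h are those of Cxcl10, Ccl2 and Ccl7.

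Cxcl10 and Cxcl9 are interferon-induced ligands of Cxcr3, which attract activated T cells and natural killer cells. At 4 h Cxcl10 (ENSMUSG00000034855, chr5:92346638-92348889, minus strand) was at 4.06, 1.62, 1.28, 1.62 and 1.9 FPKM in the control libraries and at 5.33, 10, 135, 8.97 and 9.34 FPKM after doxorubicin. Every doxorubicin library lay above every control library, 1 of 2 members higher without overlap (1.76% of all genes), and library 3 stood far above the rest. The ratio of means was 16.1 (33.7 ± 56.6 against 2.1 ± 1.12 FPKM, SD, n = 5 each), and the log2 change of 2.41 ± 0.65 (SE) missed the call in the main limma fit (adjusted p = 0.088). Without library 3 the ratio of means was 4.02 and the log2 change 1.64 (adjusted p = 0.36), and it was 1.55 (adjusted p = 0.51) without the high-oviduct libraries, which include library 3. Of the alternatives, only library weights called this change (limma adjusted p = 0.038). With AMH, the 4 h doxorubicin libraries held 3, 33.3, 2.45, 34.7 and 70.6 FPKM against 2.46, 2.14, 1.73, 1.48 and 1.43 FPKM for AMH alone. Libraries 1 and 3 stayed near the AMH level, so that the groups overlapped by a narrow margin, and the log2 change was 2.54 ± 0.65 (adjusted p = 0.085).

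At 24 h Cxcl10 rose with doxorubicin. The control libraries held 1.22, 1.21, 1.23, 3.36 and 2.25 FPKM and the doxorubicin libraries 14.8, 16.6, 13.4, 4.4 and 4.07 FPKM, again without overlap (1.92% of all genes were higher without overlap). Libraries 1 to 3 were the high ones, and libraries 4 and 5 lay just above the highest control. The ratio of means was 5.75 and the log2 change 1.89 ± 0.65 (95% confidence interval 0.57 to 3.22, limma adjusted p = 0.041). With AMH the values were 3.62, 2.81, 1.48, 5.32 and 10.6 FPKM against 1.54, 3.97, 2.19, 1.78 and 4.34 FPKM for AMH alone, groups that overlapped and differed by 0.48 ± 0.65 (adjusted p = 0.73). The difference between these doxorubicin effects was -1.41 ± 0.92 (adjusted p = 0.93), so that an effect of AMH on the 24 h rise was not shown. The 24 h call was lost when any 1 of 6 libraries was left out (control 24 h 1, 2 or 4; doxorubicin 24 h 1, 2 or 3), in limma-voom (adjusted p = 0.12), with no filter on low values (adjusted p = 0.082), in a fit of the compared groups alone (adjusted p = 0.065) and without the high-oestrogen libraries (1.92, adjusted p = 0.42), and it was 2.6 (adjusted p = 0.016) without the high-oviduct ones.

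Cxcl9 was far lower. At 24 h it held 0.136, 0.136, 0.574, 0.77 and 0.256 FPKM in controls and 1.46, 3.63, 1.6, 0.782 and 0.365 FPKM after doxorubicin, of which 4 of 5 lay above the highest control. The change of 0.80 ± 0.30 narrowly missed the call (limma adjusted p = 0.057). Apart from leaving out 1 library, 4 of 10 alternatives called this change (limma or limma-voom adjusted p from 0.007 to 0.51). At 4 h the single high value was 6.31 FPKM in doxorubicin library 3, the same library as for Cxcl10, and the rest of that group lay between 0.514 and 1.4 FPKM.

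Ccl2, Ccl7 and Ccl12 are ligands of Ccr2 or related receptors that bring monocytes out of the blood. Ccl2 (ENSMUSG00000035385, chr11:82035571-82037453, plus strand) held 0.784, 1.03, 0.383, 1.12 and 0.317 FPKM in the 4 h controls and 1.88, 5.72, 64.7, 2.42 and 5.49 FPKM after doxorubicin. The groups did not overlap, and library 3 again lay far above the others. The change was 2.20 ± 0.59, a ratio of means of 22.1, with an adjusted p of 0.086 in limma. Without library 3 the ratio of means was 5.35 and the change 1.43 (adjusted p = 0.34), and leaving out other libraries moved the change up to 2.55. Of the fits that left out 1 library, only the one without doxorubicin 4 h library 4 called it (adjusted p = 0.047). Library weights also gave a call (limma adjusted p = 0.029), and the change was 1.64 (adjusted p = 0.34) without the high-oviduct libraries. With AMH at 4 h the doxorubicin libraries held 1.05, 12.7, 1.87, 9.45 and 9.03 FPKM, all above the AMH libraries at 0.917, 0.519, 0.496, 0.225 and 0.149 FPKM. This comparison shares no library with the former, and its change was 2.09 ± 0.59 (adjusted p = 0.14). It was 1 of 3 members higher without overlap there, as were 3.43% of all genes. By 24 h Ccl2 overlapped, at 1.37, 6.47, 0.558, 3.56 and 2.51 FPKM in controls and 5.49, 10.7, 9.77, 2.53 and 1.23 FPKM after doxorubicin (0.77 ± 0.59, adjusted p = 0.34).

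Ccl7 and Ccl12 fell with AMH at 4 h, when the groups did not overlap for either gene (13% of all genes were lower without overlap). Ccl7 (ENSMUSG00000035373, chr11:82045712-82047525, plus strand) held 4.06, 7.28, 2.24, 3.3 and 1.61 FPKM in controls and 0.137, 0.603, 0.294, 0.16 and 0.848 FPKM with AMH, so that every AMH library was under 1 FPKM. The ratio of means was 0.11 and the change -1.65 ± 0.59 (limma adjusted p = 0.045). Ccl12 (ENSMUSG00000035352, chr11:82101845-82103400, plus strand), whose promoter is shown above, held 6.26, 10.1, 3.55, 4.53 and 3.36 FPKM in controls and 1.74, 1.9, 1.84, 1.11 and 2.21 FPKM with AMH. The AMH libraries of Ccl12 lay close together below all controls, with a ratio of means of 0.317 and a change of -1.17 ± 0.43 (adjusted p = 0.048). In bulk RNA, fewer cells of a type and less RNA per cell cannot be told apart. Monocyte and macrophage marker scores (mean log2(FPKM + 1) of the list) overlapped between these groups, with medians of 2.2 and 2.4 for monocytes and 3.55 and 3.63 for macrophages in control and AMH, while the oestrogen-responsive score was lower with AMH (4.1 to 5.38 in control, 3.18 to 4.05 with AMH). Smooth muscle scores were also lower without overlap (8.6 to 8.99 in control, 8.29 to 8.55 with AMH). Called lower were 2 of 5 smooth muscle, 2 of 5 stroma, 1 of 9 macrophage and 0 of 5 monocyte markers, and 10.9% of all genes. The part of these in the fall was not tested. Both calls were close to the threshold: each was lost when any 1 of 8 of the 10 libraries was left out (all but control 4 h libraries 3 and 5), in limma-voom (adjusted p = 0.057 for Ccl7 and 0.073 for Ccl12) and with no filter on low values (0.095 and 0.1). Ccl12 was also lost without the high-oviduct libraries (adjusted p = 0.072) and with a replicate block (adjusted p = 0.052).

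Doxorubicin given with AMH stood above AMH alone for both genes at 4 h without overlap. Ccl7 held 2.45, 10.4, 3.08, 10.3 and 13.6 FPKM with both agents, a change of 2.47 ± 0.59 against AMH alone (limma adjusted p = 0.06). Apart from leaving out 1 library, 4 of 11 alternatives called this change (limma or limma-voom adjusted p from 0.0011 to 0.17). Ccl12 held 3.95, 8.81, 2.61, 8.28 and 11.6 FPKM, a change of 1.41 ± 0.43 (adjusted p = 0.18). The AMH libraries enter both this comparison and the one with control. Without AMH, doxorubicin overlapped with control for Ccl7 (1.43, 4.78, 56.6, 7.11 and 8.3 FPKM; 1.06 ± 0.59, adjusted p = 0.48) and for Ccl12 (7.78, 12.9, 25.6, 6.61 and 8.66 FPKM; 0.95 ± 0.43, adjusted p = 0.37), and library 3 was the highest for both.

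At 24 h the monocyte attractants overlapped widely between doxorubicin and control. Ccl7 held 7.46, 9.61, 1.01, 12.1 and 2.38 FPKM in controls and 5.97, 22.7, 12, 5.51 and 4.62 FPKM after doxorubicin (0.66, adjusted p = 0.42). Ccl12 held 12.9, 14.3, 1.83, 12.7 and 4.43 FPKM in controls and 3.77, 16.7, 9.86, 5.29 and 8.39 FPKM after doxorubicin (0.05). Control libraries 1, 2 and 4, those set apart for oestrogen-responsive genes, were the highest controls for both. Ccl8, a gene of the same array, differed in another way. At 24 h it held 17.3, 15.5, 14.3, 29.5 and 17.6 FPKM in controls and 2.27, 14.1, 6.35, 10 and 9.05 FPKM with AMH. The AMH libraries all lay below the controls, if only just for library 2 (0.622% of all genes were lower without overlap), and the change of -1.21 ± 0.38 did not pass (limma adjusted p = 0.11).

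**Figure D3:**
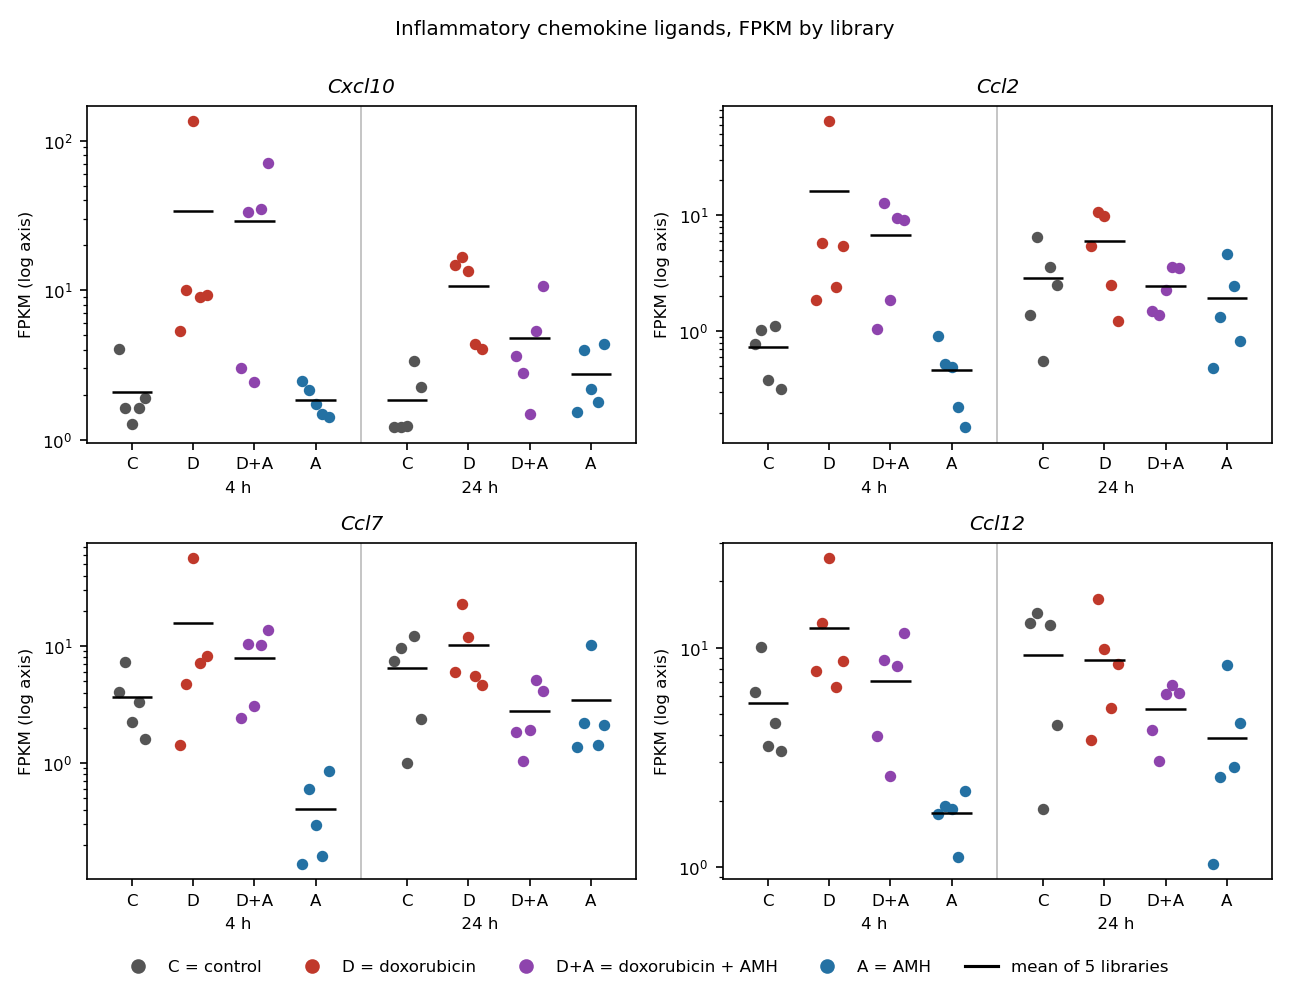
FPKM of Cxcl10, Ccl2, Ccl7 and Ccl12 in each of the 40 libraries on a log axis, by treatment and time; points are libraries and the line is the mean of 5. Doxorubicin 4 h library 3 is the highest point for Cxcl10 (135), Ccl2 (64.7), Ccl7 (56.6) and Ccl12 (25.6), and the 5 AMH 4 h libraries of Ccl7 lie under 1 FPKM.

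Ccl3, Ccl4, Ccl5, Ccl6 and Ccl9 are inflammatory CC ligands made largely by leukocytes themselves. Ccl3 (ENSMUSG00000000982, chr11:83647844-83649355, minus strand) rose with doxorubicin at 24 h. It held 0, 0.712, 0.678, 0.388 and 0.388 FPKM in controls and 1.6, 1.91, 2.2, 0.57 and 1.11 FPKM after doxorubicin, so that 4 of 5 doxorubicin libraries lay above the highest control and library 4 lay within the control range. The ratio of means was 3.41 and the change 0.77 ± 0.23 (limma adjusted p = 0.023), from a total of 27 reads in the control libraries and 108 in the doxorubicin libraries. With AMH the change went the same way, 0.49 ± 0.23, and missed the call (1.44, 0.551, 1.92, 1.12 and 1.28 FPKM against 0.263, 0.289, 0.378, 0.548 and 1.83; adjusted p = 0.34). Monocyte scores ran from 1.93 to 3.71 after doxorubicin and from 1.85 to 2.38 in the 24 h controls, macrophage scores from 3.31 to 4.24 and 3.58 to 4.2, and oviduct scores from 1.41 to 4.86 and 1.18 to 1.9, and their part in the 24 h changes of Ccl3 and Cxcl10 was not tested. The Ccl3 call was lost without any 1 of control 24 h libraries 1 and 4 and doxorubicin 24 h libraries 2 and 3, in a fit of the compared groups alone (adjusted p = 0.13), and without the high-oestrogen libraries (0.66, adjusted p = 0.42). Ccl3 passed the filter mainly through libraries with doxorubicin (9 of its 10 at 1 FPKM or more). The filter and the call thus drew partly on the same high values.

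Ccl5 (ENSMUSG00000035042, chr11:83525778-83530518, minus strand), a T and natural killer cell product, fell at 4 h when doxorubicin was added to AMH. The AMH libraries held 7.84, 12, 6.32, 6.44 and 7.34 FPKM and those with both agents 1.93, 2.49, 2.92, 4.74 and 1.8 FPKM, all below the lowest AMH library, as for 4.18% of all genes. The ratio of means was 0.348 and the change -1.27 ± 0.26 (limma adjusted p = 0.023), which made Ccl5 the 1 member called in that comparison. Without AMH the 4 h values were 9.08, 5.29, 5.22, 8.26 and 7.56 FPKM in controls and 7.13, 4.1, 6.68, 7.18 and 5.41 FPKM after doxorubicin, which overlapped (-0.18 ± 0.26, adjusted p = 0.83). The test of the difference between these effects gave -1.09 ± 0.37 (adjusted p = 0.22), so that a dependence on AMH was not shown. Natural killer marker scores ran from 1.73 to 2.17 with AMH and from 1.15 to 2.43 with both agents (medians 1.98 and 1.37), and dendritic scores from 0.96 to 1.24 and 0.56 to 0.86, and their part in the fall was not tested. The call was lost without any 1 of libraries 1, 2 and 5 of either group, without the high-oviduct libraries (-1.17, adjusted p = 0.091) and in limma-voom (-1.53, adjusted p = 0.064). At 24 h Ccl5 held 2.77, 2.27, 9.86, 4.34 and 5.64 FPKM in controls and 9.13, 6.28, 6.37, 6.05 and 4.95 FPKM after doxorubicin (0.45, adjusted p = 0.2).

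Ccl4, Ccl6 and Ccl9 passed no call in the main limma fit. Apart from leaving out 1 library, 3 of 10 alternatives called Ccl9 higher with doxorubicin at 24 h, limma-voom and scaling to total rebuilt reads among them. Ccl4 held 0.716, 0.627, 0.495, 1.6 and 0.546 FPKM in the 4 h controls and 2.37, 1.99, 5.42, 1.14 and 2.27 FPKM after doxorubicin, overlapping through control library 4 (0.95 ± 0.28, limma adjusted p = 0.12). Ccl9 at 24 h differed by 0.73 ± 0.29 between doxorubicin and control (adjusted p = 0.07), with doxorubicin library 2 highest at 13.1 FPKM. Ccl6 with both agents at 24 h (3.92, 5.43, 5.25, 12.3 and 10.3 FPKM) lay wholly above AMH alone (3.59, 2.19, 3.48, 2.83 and 2.27 FPKM), the 1 member higher without overlap there (1.12% of all genes), with a change of 1.04 ± 0.35 (adjusted p = 0.22).

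**Figure D4:**
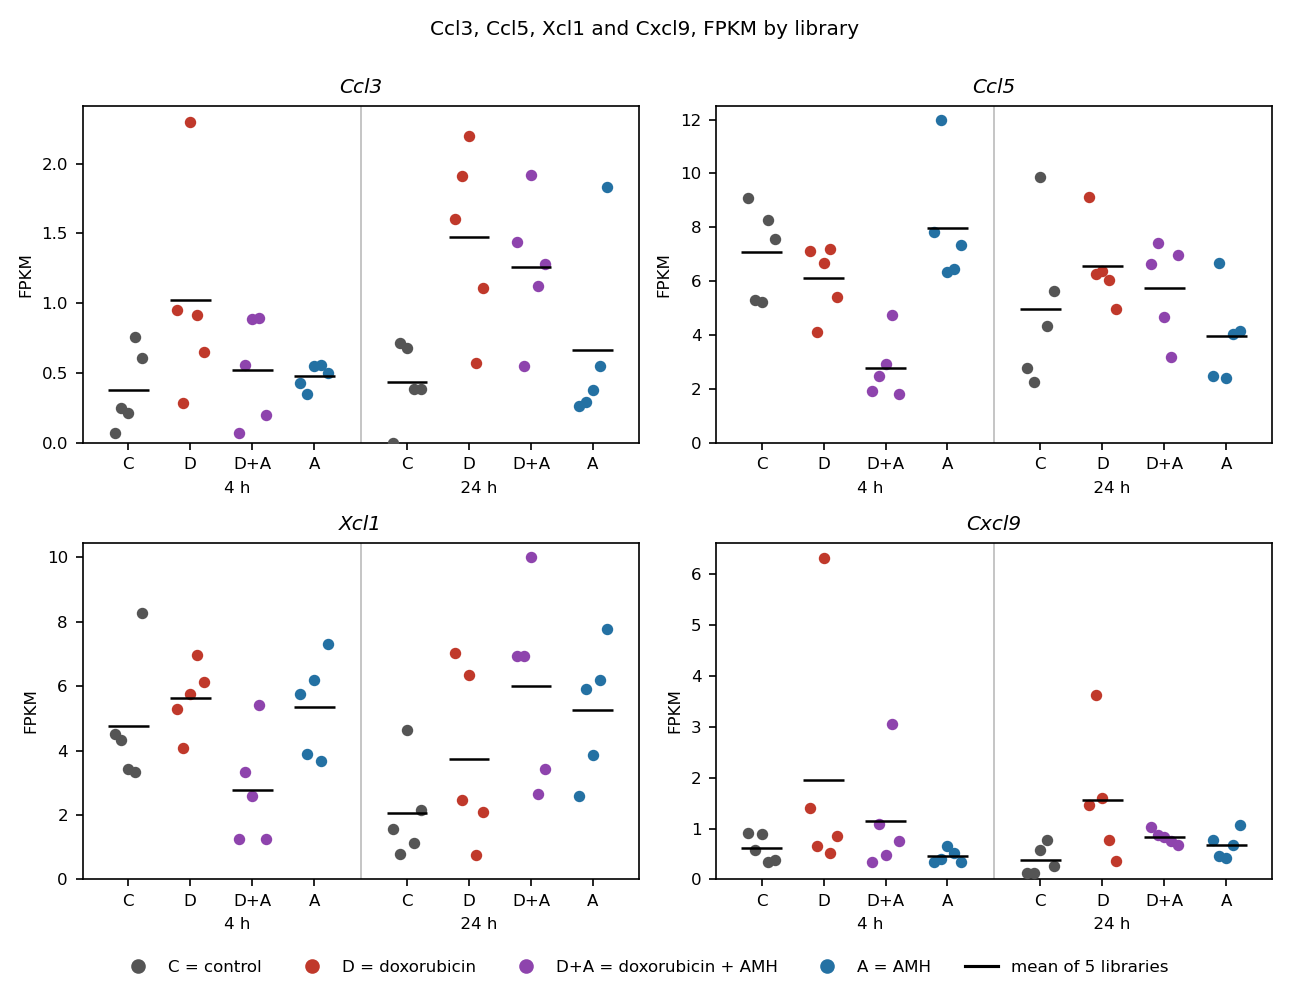
FPKM of Ccl3, Ccl5, Xcl1 and Cxcl9 in each library on a linear axis, by treatment and time; points are libraries and the line is the mean of 5. The 5 libraries with both agents at 4 h have the lowest Ccl5 mean (2.78 FPKM, against 7.98 with AMH alone), and 4 of the 5 doxorubicin 24 h libraries of Ccl3 lie above the highest control of that time.

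The neutrophil attractants with the ELR motif were mostly near 0. Of 5 only Cxcl5 and Cxcl15 passed the filter. Cxcl1, which was below it, held 0, 0, 0.029, 0.169 and 0.11 FPKM in the 4 h controls and 0.223, 0.729, 7.33, 0.16 and 0.187 FPKM after doxorubicin, with library 3 the only one above 1 FPKM. With AMH the 4 h doxorubicin libraries held 0.232, 1.05, 0.103, 0.86 and 0.868 FPKM, against at most 0.114 FPKM for AMH alone. Cxcl5 reached 7.83 FPKM in doxorubicin 24 h library 1 and 5.41 FPKM in control 4 h library 3 with most others under 1 FPKM. Cxcl15 (lungkine) had group means of 3.57 to 7.18 FPKM and varied widely within them, from 0.0961 to 7.46 FPKM in the 24 h controls alone. Neutrophil marker scores were 0.22 to 0.61 in the 4 h controls and 0.23 to 1.45 after doxorubicin.

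Among the homeostatic ligands Cxcl12, Cxcl13, Cxcl14, Cxcl17 and Cx3cl1, the main limma fit made no call in any comparison. Limma-voom made 1, for Cxcl13 with AMH at 4 h. For Cxcl12, which retains Cxcr4-bearing cells, the 4 h controls held 30, 33.7, 36.4, 35.4 and 37.1 FPKM and the doxorubicin libraries 38.8, 32, 26, 28.8 and 41 FPKM. These overlapped, and the 95% confidence interval of the log2 change was -0.38 to 0.25 at 4 h and -0.08 to 0.55 at 24 h (23.9, 24.8, 36, 22 and 30.7 FPKM against 31.7, 39.1, 30.3, 27.3 and 32.5). Cxcl14 held 84.9, 54, 72, 86.7 and 77.7 FPKM in the 4 h controls and 95.4, 80.8, 64.8, 62.3 and 70.2 FPKM after doxorubicin, with an interval of -0.72 to 0.71. The 4 h Cxcl14 means were 119 ± 45.7 FPKM (SD, n = 5) with AMH and 62.8 ± 39.5 FPKM with both agents (-1.03 ± 0.35, limma adjusted p = 0.24). Cxcl17 was highest in control 24 h libraries 2 (186 FPKM) and 1 (109 FPKM), both among those set apart for oestrogen-responsive genes, and its group means were otherwise 38.2 to 61.3 FPKM. Cx3cl1, the membrane-anchored ligand of Cx3cr1, kept group means of 9.86 to 12.4 FPKM, with an interval of -0.25 to 0.54 for doxorubicin at 4 h. Cxcl13, which guides B cells, differed by 0.67 ± 0.26 between doxorubicin and control at 24 h (adjusted p = 0.064) and by -0.65 between AMH and control at 4 h (adjusted p = 0.07). Apart from leaving out 1 library, 2 of 10 alternatives called the former (limma or limma-voom adjusted p from 0.023 to 0.37). For the latter 4 of 10 did (0.012 to 0.13).

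Among the remaining CC ligands, Ccl11 (eotaxin-1) held 25.9, 22.8, 18, 17.4 and 15.3 FPKM in the 4 h controls, 25, 22, 17.4, 15.5 and 13.7 FPKM after doxorubicin, 16.6, 17.2, 11.7, 10.2 and 14.1 FPKM with AMH and 6.64, 10.7, 9.92, 17.6 and 4.75 FPKM with both. The libraries with both agents were low except for library 4, at a change of -0.93 from doxorubicin alone (limma adjusted p = 0.59). At 24 h Ccl11 held 12.1, 7.87, 18.4, 16.2 and 17.4 FPKM in controls and 18.3, 15.1, 11.8, 6.74 and 20.5 FPKM after doxorubicin, which overlapped. The scaffold copy of Ccl21a held 16.3, 50.2, 15.6, 6.97 and 11.1 FPKM in the 4 h controls and 9.87, 7.75, 4.66, 7.21 and 1.87 FPKM after doxorubicin, where every doxorubicin library lay below the control median but the groups overlapped (-1.36 ± 0.61, adjusted p = 0.36). At 24 h the change was -1 ± 0.61 (adjusted p = 0.22), with 1 control library at 66.9 FPKM. Ccl27a, a skin and epithelial ligand of Ccr10, had a change of 0.58 ± 0.22 with AMH at 4 h (adjusted p = 0.059). Apart from leaving out 1 library, 5 of 11 alternatives called this change (limma or limma-voom adjusted p from 0.001 to 0.12). Ccl28, a mucosal ligand of the same receptor, held 16.4, 19.9, 5.39, 11.8 and 6.19 FPKM in the 24 h controls, where the highest 3 were libraries 2, 1 and 4, and 0.333, 5.77, 11.8, 4.1 and 2.24 FPKM with AMH (-1.36 ± 0.40, adjusted p = 0.091). Ccl17, a ligand of Ccr4, had 4 h means of 0.124 FPKM in control and 0.947 FPKM after doxorubicin, which overlapped (adjusted p = 0.41), and Ccl25, a thymus and gut chemokine, stayed between 0.427 and 1.35 FPKM in all libraries. Xcl1, which attracts cross-presenting dendritic cells and is made by natural killer and T cells, had a change of 1.09 with AMH at 24 h (adjusted p = 0.13).

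**Figure D5:**
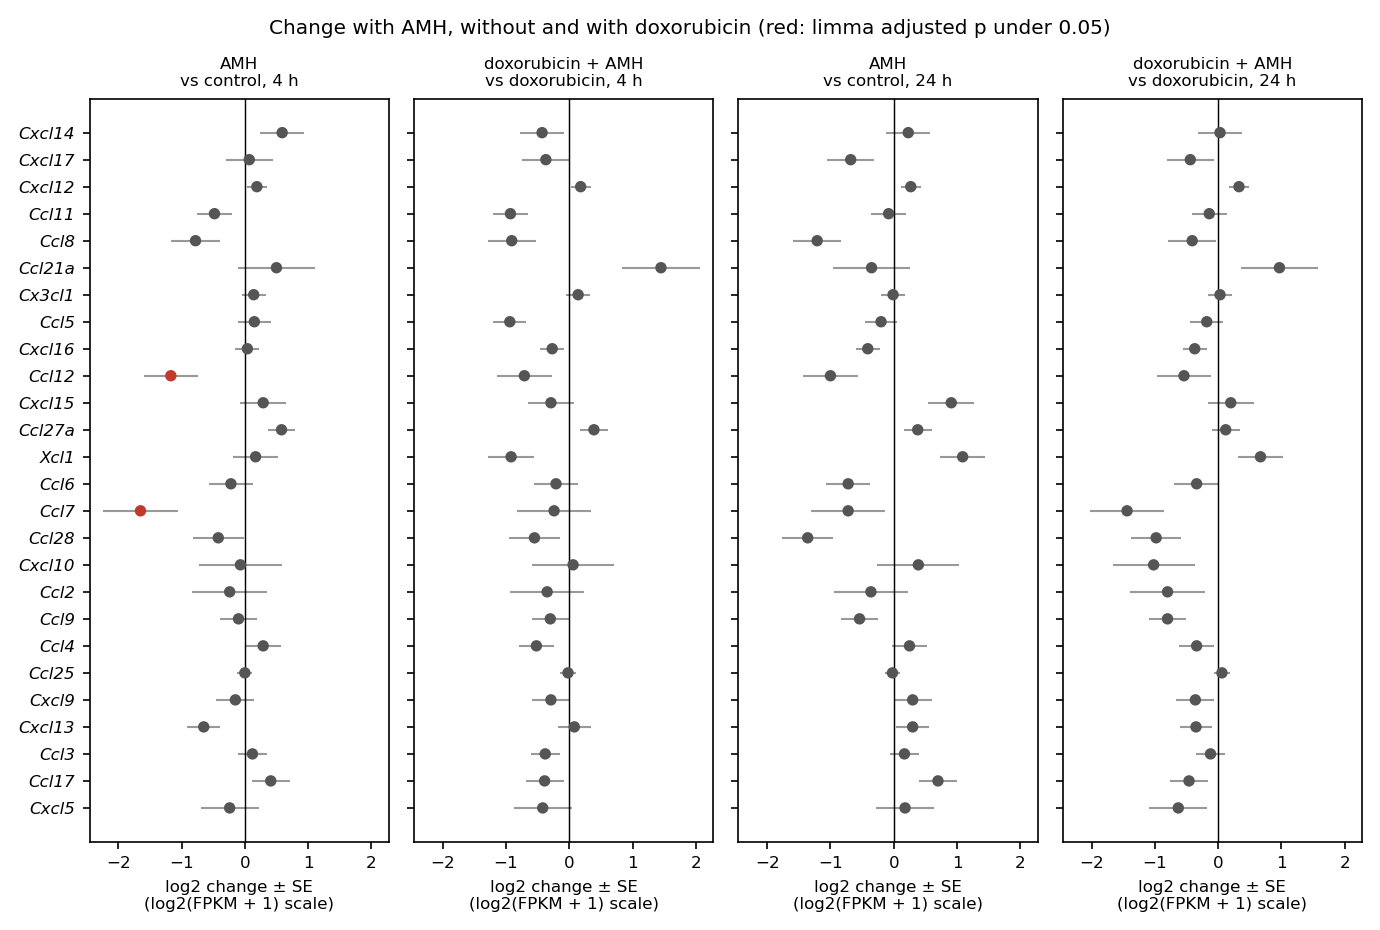
Log2 change on the log2(FPKM + 1) scale with its SE for the 26 members in 4 comparisons that ask for the effect of AMH, without or with doxorubicin, at 4 h and 24 h; red marks an adjusted p under 0.05. Ccl7 (-1.65) and Ccl12 (-1.17) at 4 h without doxorubicin are the called points.

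The receptors for these ligands were thinly represented, with 8 of 18 past the filter. Ccr3, Ccr4, Ccr6, Ccr7, Ccr8, Ccr9, Cxcr1, Cxcr2, Cxcr5 and Xcr1 did not reach it. At 24 h Cxcr4, the receptor of Cxcl12, rose with doxorubicin (0.99 ± 0.27, limma adjusted p = 0.014), from a mean of 2.91 to 6.23 FPKM. In that comparison 18.4% of all genes were called. The Cxcr4 change was 0.31 (limma adjusted p = 0.72) without the high-oestrogen libraries. Its call was also lost in a fit of the compared groups alone (limma adjusted p = 0.16). Cxcr4 also rose with AMH at 4 h (0.91 ± 0.27, limma adjusted p = 0.018), from a mean of 5.23 to 10.7 FPKM, where 20% of all genes were called. Of 4 measured atypical receptors, Ccrl2 rose with doxorubicin at 24 h (1.09 ± 0.28, limma adjusted p = 0.011). The Ccrl2 change was 0.5 (limma adjusted p = 0.53) without the high-oestrogen libraries. Its call was also lost in a fit of the compared groups alone (limma adjusted p = 0.14). Ackr3, which clears Cxcl12, was higher in control at 24 h than at 4 h (0.84 ± 0.18, limma adjusted p = 0.0038). The Ackr3 difference was 0.79 (limma adjusted p = 0.071) without the high-oestrogen libraries.

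Interferon and NF-kappaB signalling act upstream of the inducible chemokines. Of 13 measured interferon genes, 3 rose with doxorubicin at 4 h and none fell, with a median change of 0.62, led by Isg15 (1.92 ± 0.43, limma adjusted p = 0.025), Ddx58 (0.60, adjusted p = 0.037) and Irf7 (1.59, adjusted p = 0.043). At 24 h 9 of the 13 rose and none fell, with a median of 0.79, led by Gbp3 (1.47 ± 0.28, adjusted p = 0.0012) and Irf7 (1.95 ± 0.38, adjusted p = 0.0014). The all-gene medians were 0.01 and -0.01, with 0.493% of all genes called at 4 h and 18.4% called at 24 h (8.44% higher). Without the high-oviduct libraries 0 of the 3 calls at 4 h and 9 of the 9 at 24 h held, without the high-oestrogen libraries 3 of 3 and 1 of 9 (Irf7), and in fits of the compared groups alone 0 at either time; limma-voom held 1 of 3 and 9 of 9. With AMH at 4 h 1 of the 13, Mb21d1, fell (-0.82, limma adjusted p = 0.0085), where 10.9% of all genes were called lower. Of 9 measured NF-kappaB and cytokine genes, Icam1, an adhesion molecule of endothelium, rose at 4 h (1.06 ± 0.22, adjusted p = 0.011), from 6.35 ± 0.614 to 16.6 ± 10.8 FPKM (SD, n = 5). In a fit of the 4 h doxorubicin and control groups alone the Icam1 call was lost (adjusted p = 0.18). Tnf, Il1a, Il1b and Il6 were below the filter.

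Myeloid markers moved in both directions at 24 h after doxorubicin. Ly6c2 (1.5, limma adjusted p = 0.021) and Plac8 (1.19, adjusted p = 0.0098), genes of inflammatory monocytes, rose, while F13a1 fell (-0.95, adjusted p = 0.0046). Among macrophage genes, Adgre1 rose (0.72, adjusted p = 0.02), and Mrc1 (-0.63, adjusted p = 0.011) and Cd163 (-0.48, adjusted p = 0.033) fell. In the same comparison all 5 smooth muscle markers fell, with a median of -1.03, the oestrogen-responsive list had a median of -0.98 with 1 of 10 genes called lower, and the oviduct list a median of 2.17 with 1 of 7 called higher, where 18.4% of all genes were called. Of these 6 monocyte and macrophage calls none held without the high-oestrogen libraries or in a fit of the compared groups alone, and of the 5 smooth muscle calls 1 and 0 held. Without the high-oviduct libraries Ly6c2, Plac8, Adgre1 and the 5 smooth muscle calls held, and F13a1 (adjusted p = 0.051), Mrc1 (0.14) and Cd163 (0.11) did not. Limma-voom lost Ly6c2 (adjusted p = 0.092) and Cd163 (adjusted p = 0.11) and kept the other monocyte, macrophage and smooth muscle calls.

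Time by itself moved no ligand past the call in the main limma fit. Between control libraries at 24 h and 4 h, Cxcl16 differed by 0.58 ± 0.19 (limma adjusted p = 0.056), Ccl28 by 1.2 ± 0.4 (adjusted p = 0.058) and Xcl1 by -0.98 ± 0.36 (adjusted p = 0.086). The 24 h controls had oestrogen-responsive scores from 3.73 to 8.47 and the 4 h controls from 4.1 to 5.38. The doxorubicin effect was compared between the times for each gene, where 0.0123% of all genes were called and no member by limma or limma-voom, with 1 member at an unadjusted p under 0.05 (9.74% of all genes). For Cxcl10 the 24 h effect minus the 4 h effect was -0.52 ± 0.92 (adjusted p = 0.82) and for Ccl2 it was -1.42 ± 0.84 (adjusted p = 0.55), so that a difference in size between 4 h and 24 h was not shown for either.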

How the data were processed

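For the 40 libraries the authors deposited FPKM per gene in a single file, per the file headers, with a symbol, biotype and coordinates for each gene. Reads were placed on mm10, per the submitters' processing notes; for aligner, counter, annotation and strand setting nothing was given in the sources used here. Gene coordinates of all 44 members equalled GENCODE M21. No value column was left unmapped.

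FPKM values came in steps of whole reads (100% of values, tolerance 0.01), so reads were rebuilt for depth and for the limma-voom alternative. FPKM was tested as log2(FPKM + 1), which understates the change of low genes. Genes that reached 1 FPKM in 5 or more libraries entered 1 limma fit with intensity trend over all 8 groups (32 residual degrees of freedom) and 12 contrasts, with Benjamini-Hochberg adjustment over 16226 genes. Software was R 4.3.3, limma 3.58.1, Python 3.11.15 and matplotlib 3.10.9. The fit was tested on simulated data with the same dispersion for all genes and no outlying libraries. That setting is simpler than these data, so it checks the calculation only. All replicate pairs differed by more than counting noise (chi-square over its degrees of freedom at least 9.61).

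The members, role groups and gene lists were chosen with earlier results of these data known. Values by library were planned for called members, the 6 with the highest mean level and a set list (Cxcl12, Cxcl14, Cxcl10, Cxcl9, Cxcl1, Cxcl15, Ccl2, Ccl5, Ccl11, Ccl21a, Ccl19, Cx3cl1). They are not printed for every group, and Cxcl17, Cxcl15 and Cx3cl1 are given mainly as means or ranges. A few other members named here were chosen after their values were seen. For the other lists up to 3 called genes are named. Scores of marker lists are means of log2(FPKM + 1). Alternatives were another pseudocount, other filters, other scaling, library weights, a replicate block, limma-voom, separate fits and leaving out libraries; rescaling by medians of ratios changed nothing because the deposited values already had equal size factors (1.0043 in all libraries). The result of 1 gene of the receptor list is not reported here.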

Additional observations from a re-analysis of the deposited data

Results flagged for a closer look

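The 26 members and 8 groups form 208 sets of 5 libraries. In 15 of them the highest library was set apart by Dixon's test on log2(FPKM + 1). That test takes the gap to the nearest library over the range of the group. For normally distributed values about 1 in 20 sets would be flagged by chance. The rate need not hold for genes near 0, such as Cxcl5. Doxorubicin 4 h library 3 was the outlying library for Cxcl10 (135 FPKM, next highest 10), Ccl2 (64.7, next 5.72) and Ccl9 (6.26, next 2.19). Cxcl5 had such a library in 5 groups: control 4 h library 3 (5.41 FPKM, next 0.415), AMH 4 h library 4 (1.26, next 0.252), doxorubicin 24 h library 1 (7.83, next 0.751), doxorubicin with AMH 24 h library 2 (1.24, next 0.126) and AMH 24 h library 1 (2.03, next 0.205). Ccl8 stood out in control 4 h library 1 (33.4 FPKM, next 14.8) and control 24 h library 4 (29.5, next 17.6). The others were Ccl4 in control 4 h library 4 (1.6 FPKM, next 0.716), Cxcl15 in AMH 4 h library 2 (10.1, next 6.47), Ccl25 in doxorubicin 24 h library 3 (1.13, next 0.798), Ccl7 in AMH 24 h library 3 (10.3, next 2.21) and Ccl3 in AMH 24 h library 5 (1.83, next 0.548).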

How the results depend on the processing

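Direction was followed for member changes with a limma adjusted p under 0.1 in the main fit, and none of these reversed under any alternative run. Signs of the other member changes were not checked. Among called genes of the other lists, Sprr2b, an oestrogen-responsive gene called lower with doxorubicin at 24 h, reversed (0.15) without the high-oestrogen libraries. Counts of called members are given against 0 for doxorubicin against control at 4 h, 1 for doxorubicin with AMH against AMH at 4 h, 2 for AMH against control at 4 h, 2 for doxorubicin against control at 24 h and 0 elsewhere. Library weights gave 2, 5, 5 and 9 in these 4 comparisons, 1 for the 4 h interaction, 2 for doxorubicin with AMH against AMH at 24 h, 5 for both agents against doxorubicin alone at 24 h, 9 for AMH against control at 24 h and 7 for control at 24 h against 4 h. Fits of the compared groups alone gave 4 for doxorubicin with AMH against AMH at 4 h, 5 for AMH against control at 4 h, 1 for the 4 h interaction and 0 for doxorubicin against control at 24 h, where they called 25 genes in all against 2984. Without the high-oviduct libraries the counts were 0 for doxorubicin with AMH against AMH at 4 h, 1 for AMH against control at 4 h, 6 for doxorubicin against control at 24 h, 1 for both agents against doxorubicin alone at 24 h and 1 for control at 24 h against 4 h. Without the high-oestrogen libraries they were 3 for doxorubicin with AMH against AMH at 4 h and 0 for doxorubicin against control at 24 h, where 74 genes were called in all. With no filter on low values the counts were 0 for AMH against control at 4 h and 1 for doxorubicin against control at 24 h. The 5 FPKM filter gave 1 for doxorubicin against control at 24 h, where Ccl3 was not tested, and 1 for control at 24 h against 4 h. A pseudocount of 0.1 gave 3 for doxorubicin with AMH against AMH at 4 h. Limma-voom gave 0 there, 2 for AMH against control at 4 h (Ccl27a and Cxcl13) and 3 for doxorubicin against control at 24 h (Ccl3, Ccl9 and Cxcl9), so that of the 5 called members it kept Ccl3. The replicate block gave 1 for AMH against control at 4 h, since Ccl12 moved to a limma adjusted p of 0.052. It changed no other call. The labels do not say whether a library number pairs libraries across groups. Deviations of same-numbered libraries from their group means correlated at -0.71 to 0.38, which does not settle it. Leaving out 1 library at a time gave 0 to 1 for doxorubicin against control at 4 h, 0 to 2 for doxorubicin with AMH against AMH at 4 h, 0 to 3 for AMH against control at 4 h, 0 to 6 for doxorubicin against control at 24 h, 0 to 5 for AMH against control at 24 h and 0 to 6 for control at 24 h against 4 h. The cause of these shifts was not tested. Leaving out the high-oviduct or high-oestrogen libraries and scaling to total rebuilt reads were chosen after the data were seen; the last moved the all-gene median of doxorubicin against control at 24 h by 0.11 and called 1 further member, Ccl9. Depth limits the low genes most, as for Ccl3 with 27 reads over the 24 h controls.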
